A study of Rattus norvegicus with 11 samples.

Results

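Myod1 and the inhibitor of differentiation genes Id1, Id2 and Id3 were followed in REF52, an immortal line of rat embryo fibroblasts, on 11 Affymetrix rat arrays. The genes were found as the probe sets that carry 1 of these 4 symbols alone in the platform annotation, which gave 4 of the 10411 genes named in this way and 5 of the 15923 probe sets: 1 each for Myod1, Id1 and Id3, and 2 for Id2. They were picked with their signals on these arrays already in view, so their levels and differences are given as a description, with standard errors and without tests. All cells had been held in 0.25% serum for 48 hours after growth in 10% serum, and all were then infected with an adenovirus, either the control virus (CMV) or one expressing E2F1, a transcription factor that drives genes of S phase. Afterwards they stayed in deprivation medium, received serum, or received serum together with the drug LY294002, which blocks phosphoinositide 3-kinase. There are 2 arrays for each of the 6 combinations apart from control virus in deprivation, which has 1. The control for E2F1 is therefore an infected cell, and no group without virus is compared here. The title sets the question as how a program that depends on E2F1 bears on proliferation and cell death.

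Myod1 encodes MyoD, a basic helix-loop-helix (HLH) transcription factor that can turn fibroblasts into skeletal muscle cells. It binds E-boxes, short DNA elements, as a dimer with E proteins such as the products of Tcf3, Tcf4 and Tcf12. Id proteins have the HLH part and lack the basic, DNA-binding part, so that dimers with them do not bind DNA. Id genes are classical targets of bone morphogenetic protein (BMP) signalling through Smad factors and are also known as genes induced by serum.

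Of the 4 genes, 3 have a promoter in the RefSeq table (build GRCr8), and a stretch of 210 bases of each is shown because the 3 Id genes had their lowest signals on the same arrays. Each runs from 250 to 41 bases before the start used in that table. For Id1 and Id3 that start lies 39 and 38 bases inside the gene record, so the shown stretches end just before the records begin, and for Id2 both starts are the same. They lie at chr3:161671314-161671523 on the + strand (Id1), chr6:47471036-47471245 on the - strand (Id2) and chr5:153656041-153656250 on the + strand (Id3). Capitals mark matches, on either strand, to the TATA box TATAAA, the CCAAT box and the E-box CANNTG.
Id1: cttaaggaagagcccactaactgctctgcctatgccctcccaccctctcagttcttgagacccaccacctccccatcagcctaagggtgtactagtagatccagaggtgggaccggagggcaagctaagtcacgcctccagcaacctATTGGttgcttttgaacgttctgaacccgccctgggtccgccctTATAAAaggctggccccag
Id2: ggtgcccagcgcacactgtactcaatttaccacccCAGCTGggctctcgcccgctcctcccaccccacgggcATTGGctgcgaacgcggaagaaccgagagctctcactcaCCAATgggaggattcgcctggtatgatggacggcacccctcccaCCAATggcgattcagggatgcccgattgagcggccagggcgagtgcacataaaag
Id3: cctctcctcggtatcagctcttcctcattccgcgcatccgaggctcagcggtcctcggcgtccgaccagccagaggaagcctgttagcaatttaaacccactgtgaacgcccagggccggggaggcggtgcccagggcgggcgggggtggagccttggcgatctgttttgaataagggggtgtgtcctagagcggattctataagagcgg
Id1 held 1 TATAAA, which begins 20 bases before the gene record and 59 before the table's start, and 1 CCAAT. Id2 held 3 CCAAT and 1 E-box, whereas Id3 held none of these. Over the same stretch of all 33469 promoters in the table, TATAAA was found in 10.5%, CCAAT in 30.1% and CANNTG, which contains CACGTG among its matches, in 59.5%. None of the 4 E2F-type motifs TTTCCCGC, TTTCGCGC, TTTGCCGC and TTTGGCGC was found in the 3 stretches, and each is held by 0.194% to 0.684% of all of them. These letters describe this window only.

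Array signals had been brought to the same trimmed mean of 500, and array medians ran from 172.7 to 207.6. Signal from the 3' end minus that from the 5' end of the housekeeping transcripts Gapdh and beta-actin, which rises as RNA degrades, lay at 0.51 to 0.76 (log2) for the 3 deprived arrays, 0.90 on the second E2F1 array with LY294002 and 0.12 to 0.33 on the others. In RNA from whole cultures, fewer cells that express a gene and less RNA per cell cannot be told apart. Whether the arrays within a group stem from separate cultures is not stated in the labels, so errors and p-values cover the spread among the arrays at hand, and this can be purely technical. Of 15 fibroblast markers measured, 5 or 6 lay below the array median on each array, while 15 to 17 of 18 markers of other cell types lay below it. By limma, averaged over the media with E2F1 against control virus, the fibroblast marker Pdgfrb fell (-1.90 ± 0.36, adjusted p = 0.0109). It was the only 1 of the 15 called, which is 6.67%, below the 16.5% of all probe sets. Of the other cell type markers Map2, Kdr, Pparg and Tie1 rose (0.47 to 0.82) and Ptprc fell (-0.68 ± 0.19, adjusted p = 0.0431), which is 27.8% called beside 16.5% of all probe sets. The calls of Map2, Pparg, Tie1 and Ptprc were lost without 6, 7, 7 and 9 of 10 arrays left out in turn (adjusted p of up to 0.11). The part of these markers in the results was not tested. No probe set carries E2f1 as its only symbol, so E2f1 itself is not analysed here.

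Myod1 was high wherever serum was present and low wherever it was not. Its signal was 1342 and 1374 on the control virus arrays in serum and 1802 and 1726 on the E2F1 arrays in serum. With LY294002 it was 1637 and 2342 with control virus and 2011 and 1366 with E2F1. In deprivation medium it was 55.8 on the control virus array and 78.4 and 159.8 on the E2F1 arrays. The 8 arrays with serum thus lay between 1342 and 2342, and the 3 deprived arrays between 55.8 and 159.8, with no overlap. The lowest array with serum was 8.39-fold above the highest deprived one. Of all 15866 probe sets tested, 2.91% were lower on every deprived array than on every array with serum, and nothing is read from Myod1 being among them, since it was picked with these signals known.

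On the scale of log2(signal + 16), Myod1 was lower in deprivation than in serum, with a difference of -4.26 ± 0.40 (SE, 1 array against 2) in control virus cells, which is 19.1-fold, and of -3.79 ± 0.33 (2 arrays against 2) in E2F1 cells, which is 13.8-fold. These were the lowest values of the 15866 probe sets, which describes a gene picked with them in view. The deprived signals were dim, at the 24.85 percentile of the control virus array and at the 32.52 and 48.01 percentiles of the E2F1 arrays, so the exact folds depend on the offset. The pair of E2F1 arrays in deprivation differed by 0.90 and the pairs with LY294002 by 0.51 and 0.55, against 0.03 and 0.06 for the pairs in serum. With an offset of 64 in place of 16 the differences were -3.57 and -3.36, and without the first or the second deprived E2F1 array the latter was -3.34 or -4.24. The 3' to 5' difference was raised on the 3 deprived arrays (0.51 to 0.76). The array where it was highest (0.90, E2F1 with LY294002) read 1366 for Myod1. Adding the 3' to 5' difference to the fit put the value in control virus cells at -3.79. Its part in the Myod1 levels was not tested. The annotation gives this probe set a gene ID without a transcript accession, so that its naming as Myod1 (chromosome 1, 106021161 to 106023871 in GRCr8) rests on that entry alone.

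**Figure D1:**
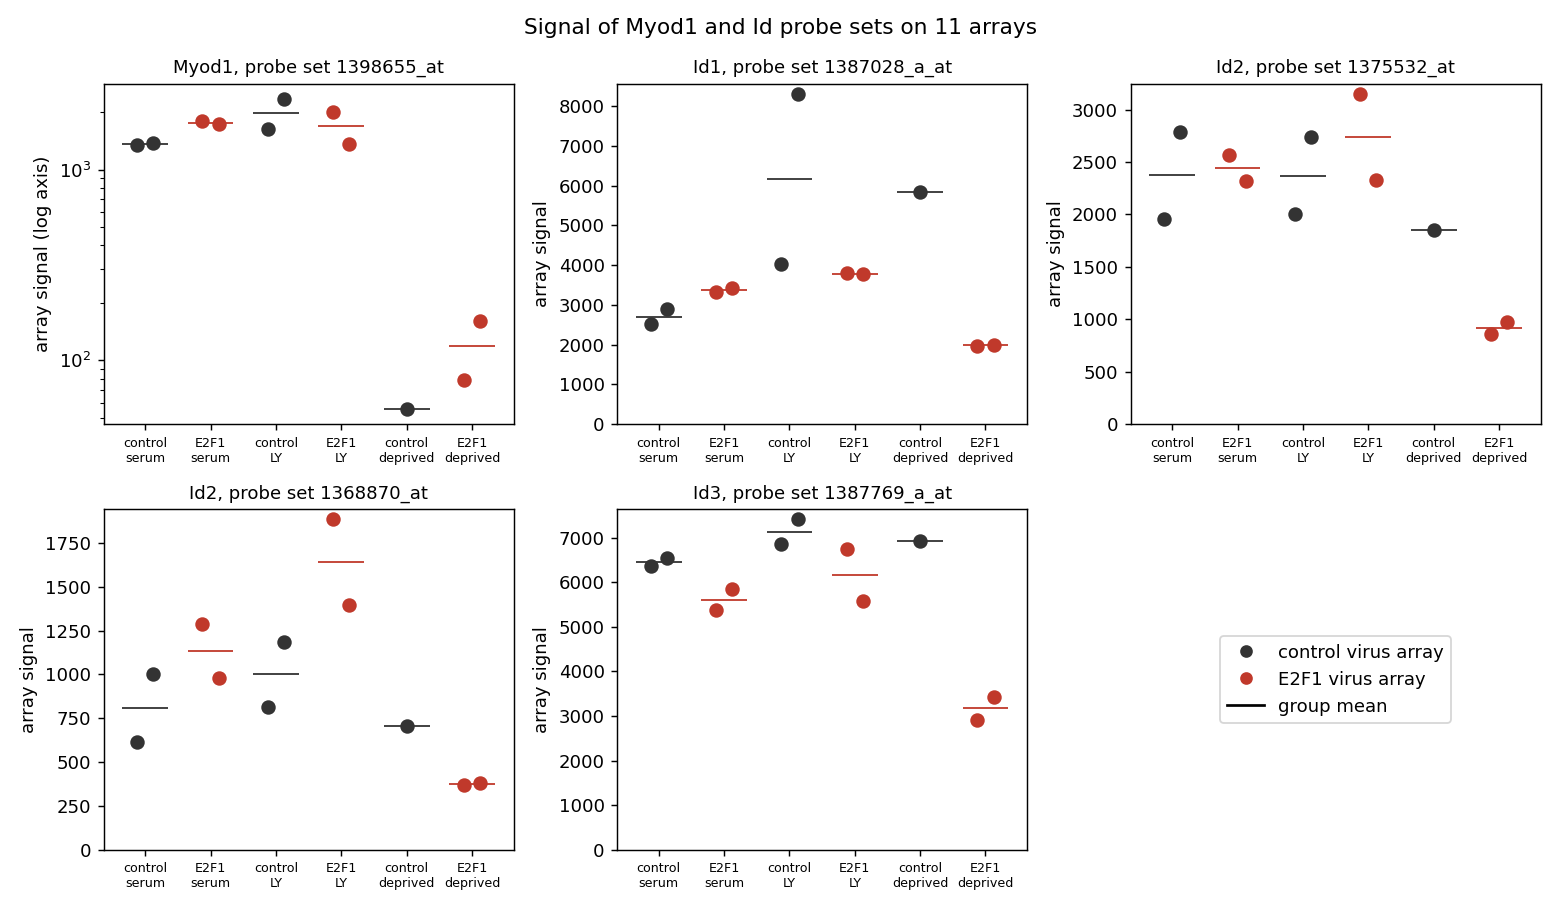
Array signal of the 5 probe sets (vertical axes, log scale for Myod1 and linear from 0 for the others) in the 6 combinations of virus and medium (horizontal axes). Points are arrays and lines are group means. The 3 deprived arrays of Myod1 sit at 55.8 to 159.8, far below the other 8, and each Id probe set is lowest on the 2 deprived E2F1 arrays.

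Myod1 differed far less between viruses, and with LY294002, than between deprivation and serum. Compared with control virus, Myod1 stood at 0.37 ± 0.33 with E2F1 in serum, at -0.24 ± 0.33 with LY294002 and at 0.84 ± 0.40 in deprivation (log2 differences ± SE). The E2F1 arrays lay above the control arrays in serum, as did 31.5% of all probe sets, and in deprivation, as did 31.8%, and the groups overlapped with LY294002. Without the first or the second deprived E2F1 array the value in deprivation was 1.29 or 0.39, and without single arrays the value with LY294002 ran from -0.51 to 0.04. With LY294002 against serum alone, the differences were 0.52 ± 0.33 in control virus cells and -0.09 ± 0.33 in E2F1 cells. Ordered by mean signal, the groups were control virus with LY294002 (1990 ± 498, SD, n = 2), E2F1 in serum (1764 ± 53.9), E2F1 with LY294002 (1688 ± 456), control virus in serum (1358 ± 22.9), E2F1 in deprivation (119.1 ± 57.6) and control virus in deprivation (55.8, n = 1). Each of the first 4 groups overlapped with its neighbour in this order.

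Id1 followed another order. Its signal was 2508 and 2896 with control virus in serum, 3321 and 3418 with E2F1 in serum, 4029 and 8319 with control virus and LY294002, and 3792 and 3770 with E2F1 and LY294002. In deprivation it was 5833 on the control virus array, against 1965 and 1992 on the E2F1 arrays. Among control virus cells Id1 was thus lowest in serum, whereas among E2F1 cells it was lowest in deprivation. From the highest mean down, the order was control virus with LY294002, control virus in deprivation, E2F1 with LY294002, E2F1 in serum, control virus in serum and E2F1 in deprivation, and only the first 2 of these overlapped.

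The Id1 difference between E2F1 and control virus was 0.32 ± 0.30 in serum, -0.61 ± 0.30 with LY294002 and -1.55 ± 0.37 in deprivation, the last a 2.93-fold lower level. Without overlap, 31.5% of all probe sets were higher with E2F1 in serum, as Id1 was, and 23.1% were lower with LY294002 and 52% in deprivation, where 2 arrays are set against 1. Without the first or the second control virus array with LY294002, the value with LY294002 was -1.13 or -0.09. In control virus cells Id1 stood 1.10 ± 0.30 higher with LY294002 than without and 1.11 ± 0.37 higher in deprivation than in serum. The former was 0.58 without the second control virus array with LY294002 and 1.62 without the first. In E2F1 cells the same differences were 0.17 ± 0.30 and -0.76 ± 0.30. The difference with LY294002 in control virus cells comes with a wide spread, since the arrays of that group differed by 1.04 on the log2 scale.

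Id2 was read by both of its probe sets in a like way, with a correlation of 0.93 between them over the 11 arrays. The brighter one gave 1959 and 2791 with control virus in serum, 2563 and 2316 with E2F1 in serum, 2000 and 2737 with control virus and LY294002, and 3154 and 2333 with E2F1 and LY294002. In deprivation it gave 1848 on the control virus array and 861 and 969 on the E2F1 arrays. The 4 groups with serum overlapped with each other, the deprived control virus array lay just below the lowest of them, and the deprived E2F1 arrays lay well below all others. E2F1 minus control virus was 0.06 ± 0.25 in serum, 0.21 ± 0.25 with LY294002 and -1.004 ± 0.31 in deprivation, the last a 2.01-fold lower level.

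The dimmer Id2 probe set gave 613 and 1004 with control virus in serum, 1289 and 982 with E2F1 in serum, 814 and 1186 with control virus and LY294002, and 1885 and 1395 with E2F1 and LY294002. It gave 704 on the deprived control virus array and 371 and 383 on the deprived E2F1 arrays. E2F1 minus control virus was 0.51 ± 0.30 in serum, 0.71 ± 0.30 with LY294002 and -0.87 ± 0.37 in deprivation. Here the E2F1 arrays with LY294002 lay above both control arrays, as 21% of all probe sets did, which the brighter probe set did not show. Levels of the 2 probe sets are not set against each other, since probe sets differ in brightness.

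Id3, the steadiest of the 4 genes, had its highest signal 2.55-fold above its lowest, against 4.23-fold for Id1 and 42.0-fold for Myod1. It gave 6373 and 6546 with control virus in serum, 5371 and 5838 with E2F1 in serum, 6862 and 7411 with control virus and LY294002, and 6739 and 5578 with E2F1 and LY294002. In deprivation it gave 6930 on the control virus array and 2912 and 3434 on the E2F1 arrays. The E2F1 arrays were below the control arrays in each medium, narrowly so with LY294002. Of all probe sets 23.4% were lower in this way in serum, 23.1% with LY294002 and 52% in deprivation, where 2 arrays are set against 1. The share lower in all 3 media is not given. The differences were -0.21 ± 0.17 in serum, -0.22 ± 0.17 with LY294002 and -1.13 ± 0.21 in deprivation, the last a 2.19-fold lower level. In control virus cells Id3 stood at 0.14 ± 0.17 with LY294002 and 0.10 ± 0.21 in deprivation, each against serum. By mean signal the order was control virus with LY294002, control virus in deprivation, control virus in serum, E2F1 with LY294002, E2F1 in serum and E2F1 in deprivation. The deprived control virus array lay inside the range of the group above it, E2F1 with LY294002 overlapped with both of its neighbours, and the deprived E2F1 arrays lay apart.

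**Figure D2:**
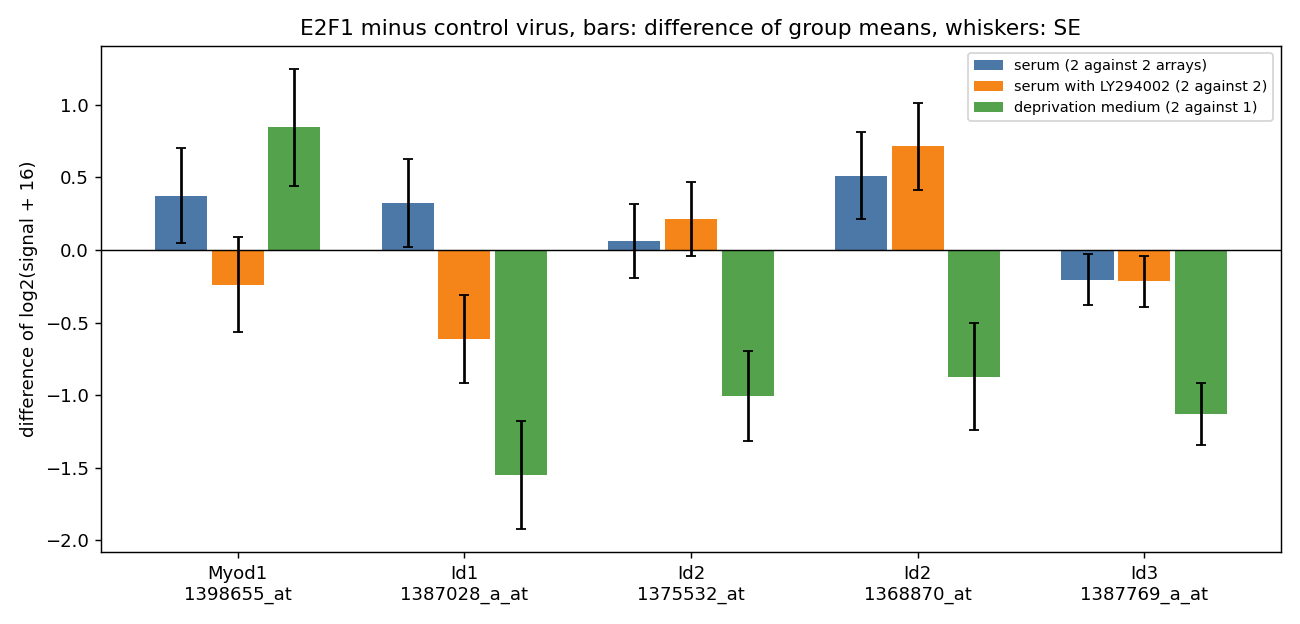
Difference between E2F1 and control virus cells in log2(signal + 16) (vertical axis) for each probe set (horizontal axis) in the 3 media. Bars are differences of group means and whiskers are standard errors from the fit across all arrays. All 4 Id bars in deprivation lie between -1.55 and -0.87, while the Myod1 bar is at 0.84.

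All 4 Id probe sets were lower on both deprived E2F1 arrays than on any of the other 9 arrays, as were 7.9% of all probe sets tested. This count describes genes chosen with these signals known. The 3' to 5' difference was 0.56 and 0.51 on these arrays and 0.76 on the deprived control virus array, and its part in the Id levels was not tested. The low Id levels in deprivation rest, on the control side, on that 1 array. Averaged over the 3 media, E2F1 minus control virus was -0.61 ± 0.19 for Id1, -0.24 ± 0.16 and 0.12 ± 0.19 for the probe sets of Id2, -0.52 ± 0.11 for Id3 and 0.33 ± 0.20 for Myod1. In this average the 6 E2F1 arrays overlapped with the 5 control virus arrays for each of the 5 probe sets, while over all probe sets 6.05% were higher and 3.59% lower without overlap.

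In control virus cells Myod1 was low in deprivation, while against serum Id1 stood at 1.11 ± 0.37 and Id3 at 0.10 ± 0.21. Id2 was between Myod1 and Id3, with -0.34 ± 0.31 for the brighter probe set and -0.15 ± 0.37 for the dimmer one. Each of these values rests on 1 deprived array. In E2F1 cells all 4 genes were lower in deprivation than in serum, with differences of -3.79 ± 0.33 for Myod1, -0.76 ± 0.30 for Id1, -1.40 ± 0.25 and -1.54 ± 0.30 for the probe sets of Id2, and -0.82 ± 0.17 for Id3. Each was below its serum arrays without overlap, as were 37% of all probe sets. The E2F1 effect in deprivation differed from that in serum by -1.87 ± 0.48 for Id1, -1.06 ± 0.40 and -1.38 ± 0.48 for Id2, -0.92 ± 0.28 for Id3 and 0.47 ± 0.52 for Myod1.

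**Figure D3:**
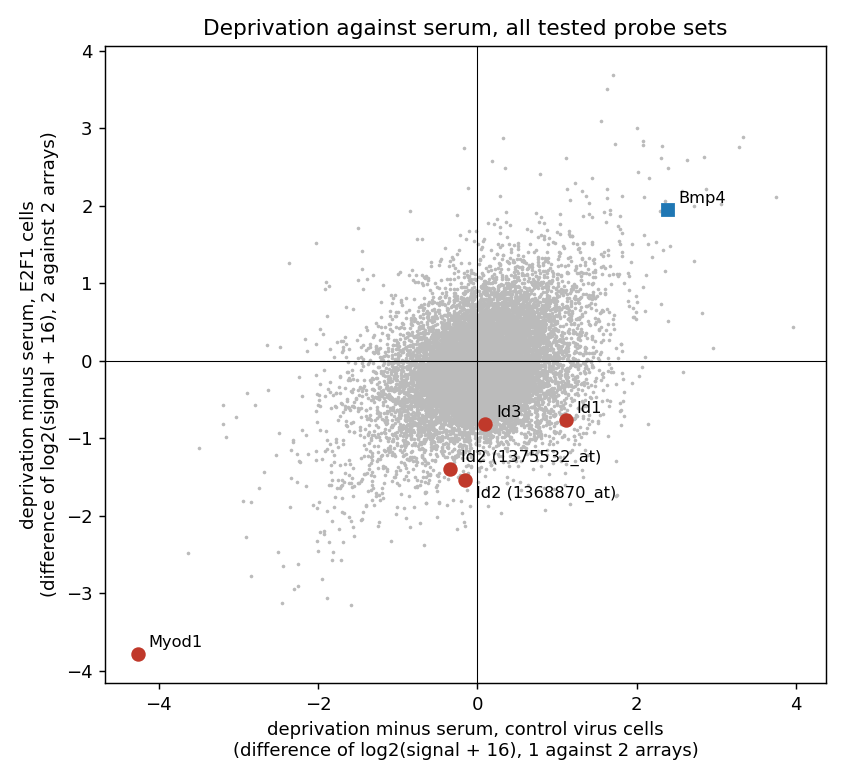
Difference between deprivation and serum in log2(signal + 16) for all tested probe sets (grey), in control virus cells (horizontal axis) and E2F1 cells (vertical axis). Red points are the Myod1 and Id probe sets and the blue square is Bmp4. Myod1 is the lowest point on both axes, at -4.26 and -3.79, and Id1 lies to the right of 0 and below it.

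The genes whose pattern over the 11 arrays was most like that of Myod1, by Pearson's r among named probe sets outside the dimmest 30%, were Arl6ip5 (0.976), Gpc1 (0.963), Denr (0.963), Ccs (0.961) and Csnk1d (0.956). The arrays fall into a deprived cluster and a cluster with serum, and within the 8 arrays with serum the same values were 0.76, 0.01, 0.62, 0.54 and 0.46. The likeness to Gpc1, a heparan sulfate proteoglycan of the cell surface, thus comes from the step between media alone: it read 3558 to 5598 on deprived arrays and 9603 to 10246 on the others. Arl6ip5 read 1863 to 2123 on deprived arrays and 3511 to 4755 on the others. For Id1 they were Polr1a (0.935), the largest subunit of RNA polymerase I, the Krueppel-like factor Klf2 (0.921), Pgrmc1 (0.914), the peroxiredoxin Prdx5 (0.91) and Lman2l (0.896), and within the 8 arrays with serum the values were 0.861 to 0.969. For Id2 they were Gramd2b (0.969), Imp4 (0.939), Psma6 (0.937), Nutf2 (0.937) and Nap1l4 (0.93), with 0.541 to 0.892 within the 8 arrays with serum. For Id3 they were Zdhhc7 (0.95), Nap1l4 (0.942), Pld2 (0.94), Plpp2 (0.935) and Prdx3 (0.931), with 0.30 (Pld2) to 0.832 (Zdhhc7) within those arrays. Between Id1 and Id3 r was 0.753 and rho 0.855, and between the brighter Id2 probe set and Id3 r was 0.871 and rho 0.427. The arrays share groups of cells, so these values describe the pattern over media and viruses.

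The dimerisation partners of MyoD and of the Id proteins, the E proteins, gave no call in any of the 10 comparisons made with limma. In the E2F1 average Tcf3 stood at 0.48 ± 0.20 (adjusted p = 0.148), Tcf12 at 0.25 ± 0.19 (adjusted p = 0.428) and Tcf4 at -0.07 ± 0.12 (adjusted p = 0.755). Id4, the remaining member of the Id family, stood at 0.69 ± 0.26 (adjusted p = 0.11), with signals of 142 to 367 on control virus arrays and 221 to 788 on E2F1 arrays, which overlap. In deprivation its difference between E2F1 and control virus was 0.15 ± 0.50 (adjusted p = 0.901), beside the negative values of Id1, Id2 and Id3. Of 24 other HLH factors measured, Id4 among them, 1 rose and 2 fell in the average (median -0.09, against -0.04 over all probe sets). The clock factor Clock rose (0.58 ± 0.14, adjusted p = 0.0311), and the repressor Bhlhe40 (-1.25 ± 0.21, adjusted p = 0.00685) and the cardiac factor Hand1 (-0.98 ± 0.24, adjusted p = 0.027) fell. Over all probe sets 16.5% were called in this average, 9.23% as higher and 7.25% as lower. The calls of Clock and Hand1 were each lost without 6 of 10 arrays tried in turn, with an adjusted p of up to 0.0867.

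Among the other myogenic factors, Myog did not share the pattern of Myod1. Myf5 has no probe set with that single symbol, and Myf6 was too dim to tell. Myogenin, the product of Myog that acts downstream of MyoD, had signals of 98.5 to 200.2 on all arrays, and its deprivation difference was -0.28 ± 0.43 in control virus cells (adjusted p = 0.824) and -0.13 ± 0.35 in E2F1 cells (adjusted p = 0.872). Myf6 read 5.11 to 40.0, near the offset of 16. Of 49 skeletal muscle genes measured, 31 lay below the median of every array and 5 above the median of every array, namely Tnnc1, Myh1, Casq2, Itga7 and Ankrd1. On the deprived arrays the summed signal of the 49 was 9753 to 10974, and on the arrays with serum it was 9190 to 21199. Of these 49, Ankrd1 and Chrnb1 were lower on each deprived array than on each array with serum, beside 2.91% of all probe sets. Tnnt2 was higher in this way, for which the share of all probe sets is not given here. Ankrd1, a stretch-responsive ankyrin repeat protein, read 723 to 895 in deprivation and 2037 to 11907 with serum. Chrnb1, a subunit of the muscle acetylcholine receptor, read 82.8 to 121.9 in deprivation and 363 to 1339 with serum (-2.63 ± 0.49 in E2F1 cells, adjusted p = 0.0782). Musk stood at -2.15 ± 0.47 in E2F1 cells (adjusted p = 0.0942). Acta1, skeletal muscle actin, was the muscle gene called for deprivation, and it rose in control virus cells (2.58 ± 0.24, adjusted p = 0.0191) at signals of 4.21 to 120.4, a call lost without either deprived E2F1 array or either serum array with control virus (adjusted p of up to 0.125). In the E2F1 average Cacna1s rose (0.40 ± 0.10, adjusted p = 0.0281, signals of 3.62 to 25.9) and Tnni1 (-0.75 ± 0.14, adjusted p = 0.00936) and Acta1 (-0.46 ± 0.12, adjusted p = 0.0403) fell. These 3 calls are 6.12% of the 49 genes, below the 16.5% of all probe sets called in this average. For Acta1 the value was 0.26 in serum, 0.84 with LY294002 and -2.47 in deprivation, so that its average comes from deprivation alone, and the average was not called with an offset of 1 (adjusted p = 0.254) or quantile normalization (adjusted p = 0.0721). A dimmer probe set of Tnni1 read 90.0 to 224.8, with overlap between the viruses. Of 17 myogenic factors and MyoD partners, the histone deacetylase Hdac1 rose (1.20 ± 0.15, adjusted p = 0.00253) and the repressor Snai1 fell (-0.87 ± 0.12, adjusted p = 0.00359). This is 11.8% called, also below 16.5%. For deprivation in E2F1 cells the 17 gave 0 calls by limma, with 7 at an unadjusted p under 0.05. The 2 with the smallest p were Cdon (-1.40 ± 0.31, adjusted p = 0.0955) and Ep300 (0.57 ± 0.18, adjusted p = 0.158). The calls of Acta1 and Cacna1s were lost without 8 and 7 of 10 arrays, with adjusted p of up to 0.109 and 0.0879.

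Upstream of the Id genes, the ligand Bmp4 rose in deprivation and fell with E2F1. Its signal was 527 and 465 with control virus in serum, 285 and 329.6 with E2F1 in serum, 643 and 689 with control virus and LY294002, and 425 and 410.3 with E2F1 and LY294002. In deprivation it was 2671 on the control virus array and 1131 and 1323 on the E2F1 arrays. The E2F1 arrays were below the control arrays in each medium, as for Id3, and the deprived arrays were the highest with either virus, unlike Id3. Of all probe sets 23.4% were lower with E2F1 in this way in serum, 23.1% with LY294002 and 52% in deprivation. The share that was highest on the deprived arrays is not given. By limma Bmp4 rose in deprivation against serum by 2.39 ± 0.21 in control virus cells (adjusted p = 0.0175) and 1.94 ± 0.17 in E2F1 cells (adjusted p = 0.0138). It fell with E2F1 in the average (-0.81 ± 0.11, adjusted p = 0.00301) and in deprivation (-1.12 ± 0.21, adjusted p = 0.0372). Of all probe sets 0.24% and 0.233% were called in the deprivation comparisons. Both deprivation calls were lost when 1 deprived E2F1 array or 1 of the serum arrays with control virus was left out, and the call in E2F1 cells also when 1 of its serum arrays was left out, with adjusted p of up to 0.136 and 0.193. Fitted with the 3' to 5' covariate, the calls had an adjusted p of 0.13 and 0.0867. The fall in deprivation was lost without the same 6 arrays (adjusted p of up to 0.184), while the fall in the average held without each of the 10 arrays tried.

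Of 30 BMP and TGF-beta ligands, receptors and Smads, 2 rose and 5 fell in the E2F1 average (median -0.10), which is 23.3% called beside 16.5% of all probe sets. Besides Bmp4, the ligands Tgfb3 (-1.42 ± 0.21, adjusted p = 0.00463) and Tgfb2 (-1.26 ± 0.18, adjusted p = 0.00395) and the TGF-beta mediator Smad3 (-0.82 ± 0.14, adjusted p = 0.00768) fell. The activin subunit Inhbb (0.78 ± 0.12, adjusted p = 0.00537) and the receptor Tgfbr1 (0.77 ± 0.17, adjusted p = 0.0188) rose. Tgfb3 read 2741 to 6256 on control virus arrays and 444 to 1563 on E2F1 arrays with serum, but 4305 and 5377 on the deprived E2F1 arrays. The call of Tgfbr1 was lost without the first deprived E2F1 array, the second serum array with control virus or the first serum array with E2F1 (adjusted p of up to 0.0591).

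Of 28 feedback and target genes of these pathways, 2 rose and 2 fell in the average (median -0.13), which is 14.3% called, near the 16.5% of all probe sets. Atoh8, an HLH factor known as a target of BMP signalling, rose (1.33 ± 0.17, adjusted p = 0.00265), the opposite sign to Id1 and Id3. It read 114 to 409 on control virus arrays and 454 to 841 on E2F1 arrays, without overlap, and 6.05% of all probe sets were higher in this way. Klf10 rose as well (0.95 ± 0.20, adjusted p = 0.0149), and Tgif1 (-0.58 ± 0.15, adjusted p = 0.0391) and Fstl1 (-0.51 ± 0.13, adjusted p = 0.0294) fell, both lost without 7 of 10 arrays (adjusted p of up to 0.107). The inhibitory Smads, which are targets shared with the Id genes, did not pass: Smad7 stood at -0.61 ± 0.18 (adjusted p = 0.0555) and Smad6 at -0.33 ± 0.15 (adjusted p = 0.194). Smad7 was 0.90 ± 0.35 higher by value in deprivation than in serum in control virus cells (adjusted p = 0.314), beside 1.11 ± 0.37 for Id1. Its dimmer probe sets read 325 and 165.0 on the deprived control virus array, against 274 to 289 and 173 to 187 on the control virus arrays in serum.

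Of 21 genes measured whose products act on the Id and MyoD proteins or are bound by them, 7 rose and 1 fell in the average (median 0.13). This is 38.1% called beside 16.5% of all probe sets. Like the other lists, this one was chosen with earlier results of these data known, so its share is a description only. Usp1, the deubiquitinase known to stabilise Id proteins, rose by 2.93 ± 0.16 (adjusted p = 0.000298). It read 119.6 to 324 on control virus arrays and 1078 to 1999 on E2F1 arrays, without overlap in any medium, and its other probe set read 97.3 to 277 against 701 to 1143. Of all probe sets 6.05% were higher on every E2F1 array than on every control virus array. Usp1 also rose in serum (2.09 ± 0.26, adjusted p = 0.0402), with LY294002 (3.28 ± 0.26, adjusted p = 0.00354) and in deprivation (3.41 ± 0.32, adjusted p = 0.0137), where Id1, Id2 and Id3 had their lowest levels. The call in serum was lost without 9 of 11 arrays (adjusted p of up to 0.267), and that in deprivation without either deprived E2F1 array (adjusted p of up to 0.14). Ccne1, the cyclin of the kinase Cdk2 that phosphorylates MyoD, rose (3.11 ± 0.18, adjusted p = 0.000298). The ubiquitin ligase activators Fzr1 (1.17 ± 0.16, adjusted p = 0.00349) and Cdc20 (1.14 ± 0.26, adjusted p = 0.0224) rose, and caveolin, Cav1, fell (-0.78 ± 0.16, adjusted p = 0.0153). The call of Cdc20 was lost without either of the deprived E2F1 arrays or the first serum array with E2F1 (adjusted p of up to 0.0641), and that of Cav1 without the first deprived E2F1 array (adjusted p = 0.0506).

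Of 4 measured genes listed as repressed by Id proteins, 3 rose in the average and 0 fell (median 1.07), beside 9.23% of all probe sets that rose. Cdkn1a, 1 of the 3, is also among the 7 above. The remaining gene, Cdkn2b, stood at -0.86 ± 0.41 in the average (adjusted p = 0.197), -1.08 ± 0.65 in serum, -1.73 ± 0.65 with LY294002 (adjusted p = 0.174) and 0.23 ± 0.80 in deprivation. The 3 that rose are Cdk inhibitor genes: Cdkn2a (1.63 ± 0.30, adjusted p = 0.00913), Cdkn1b (1.25 ± 0.27, adjusted p = 0.0185) and Cdkn1a (0.88 ± 0.14, adjusted p = 0.00593). Cdkn2a read 4314 and 3370 on the deprived E2F1 arrays, its highest levels, against 659 on the deprived control virus array, where the difference was 2.50 ± 0.58 (adjusted p = 0.065). The average call of Cdkn1b was lost without the second deprived E2F1 array, the first control virus array in serum or the first E2F1 array in serum. Within single media only LY294002 gave calls, for Cdkn1b (2.28 ± 0.44, adjusted p = 0.0302) and Cdkn1a (1.20 ± 0.23, adjusted p = 0.0298). They were lost without 6 and 8 of 11 arrays. In that medium Id1 stood at -0.61, the Id2 probe sets at 0.21 and 0.71 and Id3 at -0.22. A link between these genes and the Id levels was not tested.

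**Figure D4:**
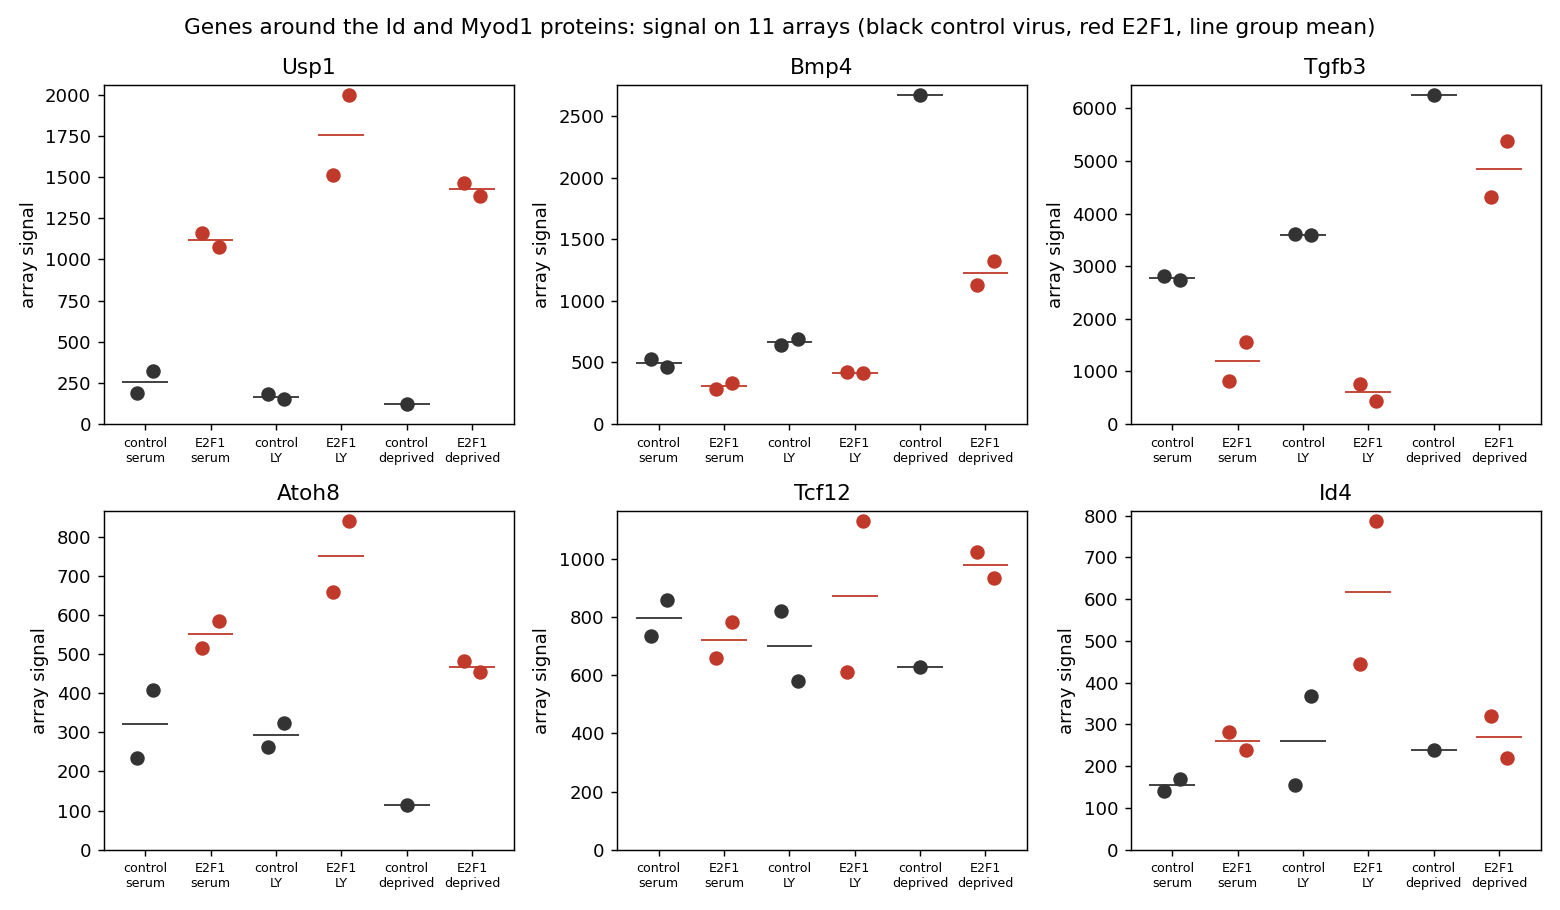
Array signal (vertical axes, linear from 0) of Usp1, Bmp4, Tgfb3, Atoh8, Tcf12 and Id4 in the 6 combinations of virus and medium. Points are arrays and lines are group means, in black for control virus and red for E2F1. Usp1 is separated by virus in each medium, Bmp4 is highest in deprivation and Tcf12 shows overlap between viruses.

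Over all lists, 208 of 254 genes were measured, and 20 rose and 15 fell in the E2F1 average, which is 16.8% beside 16.5% of all probe sets. Of these 35 calls, 19 held without each single array, and the count was 21 when the first deprived E2F1 array, or the first serum array with E2F1, was left out. In serum 2 genes rose (0.962%, beside 0.353%), and 0 were left without most single arrays, 1 when the second serum array with control virus was dropped. With LY294002 10 rose and 9 fell (9.13%, beside 5.41%), and in deprivation 7 rose and 2 fell (4.33%, beside 2.87%). The count of 19 with LY294002 was 4 without either deprived E2F1 array, 5 without the second E2F1 array with LY294002, 8 and 10 without the first and second control virus array with LY294002, and 9 without any one of the 4 serum arrays without inhibitor. The count of 9 in deprivation was 0 when a deprived E2F1 array was left out, 4 for each serum array with control virus and 3 for each with E2F1. LY294002 itself gave 0 calls by limma among the 208 genes in control virus cells and 0 in E2F1 cells, with 17 and 35 at an unadjusted p under 0.05, and no probe set of the whole array was called. The tests of a different E2F1 effect with LY294002 or in deprivation also gave 0 calls, with 17 and 20 at an unadjusted p under 0.05.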

How the data were processed

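RNA of REF52 cells (6 µg of total RNA per array, per the labels' protocols) was hybridised to 11 arrays. The authors deposited 1 linear signal intensity per probe set and array. MAS5 and RMA appear in the submitters' processing notes, with neither role nor version. The trimmed mean (2% off each end) is 500 on every array. No detection calls were used.

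Of 15923 probe sets, 57 controls were left out. Signals were taken as log2(signal + 16) without further scaling, and folds are on this scale. All 15866 remaining probe sets were fitted in limma 3.58.1 (R 4.3.3), each group having its own mean (5 residual degrees of freedom, a prior of 2.88), which assumes that the lone deprived control virus array varies like the other groups. Benjamini-Hochberg adjustment ran over all probe sets of each of the 10 comparisons, with calls at 0.05. A list gene is read by its probe set with the highest mean.

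Myod1, the Id genes and the 10 lists were chosen with earlier results of these data known. Named genes are the 5 most correlated with each of the 4 genes, up to 4 called genes per list and direction or the 2 with the smallest p, and 11 fixed genes, of which Myf5 has no probe set with that single symbol. Ankrd1, Chrnb1, Tnnt2, Cdkn2b and the 5 bright muscle genes were named after their values were seen. The annotation is that of 2016. Only the limma calls of the E2F1 average were tested on simulated data, with independent noise. The other comparisons and steps were not tested in this way.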

Additional observations from a re-analysis of the deposited data

Results flagged for a closer look

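For some genes the E2F1 arrays lay above the control virus arrays in 1 medium and below them in another, without overlap in either. This was met in 10 of 141 looks over 47 probe sets. Within a single medium, 21% to 52% of all probe sets lay apart in a given direction. The share of all probe sets that did so in opposite directions is not given. These differences were picked out from the array values and, for the Myod1 and Id probe sets, were not tested. For Id1 the E2F1 effect with LY294002 (-0.61) lay 0.93 below that in serum (0.32), a difference of -0.93 that was -0.41 without the second control virus array with LY294002 and -1.45 without the first. The effect in deprivation (-1.55) differed from that in serum by -1.87. For the dimmer Id2 probe set the effect in deprivation (-0.87) differed from that with LY294002 (0.71) by -1.59. The brighter one did not share this, since its arrays with LY294002 overlapped.

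Among the other named genes, Acta1 differed by -3.30 (deprivation -2.47, LY294002 0.84) at signals of 4.21 to 120.4. Kdr differed by -1.33 between deprivation and serum and by -1.20 between deprivation and LY294002, at signals of 5.19 to 42.7, near the offset of 16. Tnnc1 differed by 0.96 between deprivation and serum and by 2.35 between deprivation and LY294002. Tcf4 differed by 0.53 between LY294002 and serum and by -0.56 between deprivation and LY294002. For the comparisons with serum, limma called none of these differences (0 of all 15866 probe sets, with 17 and 20 of the 208 listed genes at an unadjusted p under 0.05), and the differences between deprivation and LY294002 were not tested. Each deprivation value rests on 1 control virus array.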

How the results depend on the processing

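Some of the alternative settings cannot change a difference of group means. These are the trend and robust setting, leaving out the dimmest probe sets, and leaving out a single array outside the compared groups. Their values are counted below, so the number that stayed within the spread overstates how stable the differences are. Of 990 values of the Myod1 and Id differences under the alternatives, 941 stayed within 1 SD of the spread between replicates. Another sign was seen in 36. Those with another sign beyond that spread were Myod1 for E2F1 with LY294002 (0.29 without both second arrays with LY294002) and, with single arrays left out, the dimmer Id2 probe set (-0.029 to 0.67 for LY294002 and -0.50 to 0.20 for deprivation in control virus cells, -0.15 to 0.55 for the difference of the E2F1 effect with LY294002 from that in serum) and Id3 (-0.0054 to 0.27 for LY294002 in E2F1 cells, 0.12 for that difference, and 0.18 without both second arrays with LY294002). Myod1 in deprivation was -3.57 (control virus) and -3.36 (E2F1) with an offset of 64 and -3.79 (control virus) with the 3' to 5' covariate, and -4.24 to -3.34 in E2F1 cells without single arrays. For the Id genes in deprivation, E2F1 against control virus ranged from -1.68 to -1.48 for Id1, -1.12 to -0.94 for the brighter Id2 probe set and -1.22 to -1.08 for Id3 when all arrays of these groups were kept.

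Counts of called list genes depended more on the setting, with 5 residual degrees of freedom. Without both second arrays with LY294002 they were 55 (average, in place of 35), 0 (serum, 2), 0 (LY294002, 19), 23 (E2F1 in deprivation, 9), 10 (deprivation in control virus cells, 2) and 21 (deprivation in E2F1 cells, 1). Fits of the compared groups alone gave 0 for the comparisons of E2F1 in each medium and for both of deprivation. An offset of 1 gave 0, 6 and 5 for E2F1 in serum, with LY294002 and in deprivation. The 3' to 5' covariate gave 6 with LY294002, 16 in deprivation and 0 in both deprivation comparisons. Deprivation in control virus cells gave 1 without the dimmest 30%, and deprivation in E2F1 cells gave 3 (quantile), 2 (centred medians), 2 (offset of 64), 4 (without the dimmest 30%) and 2 (trend and robust). Leaving out single arrays gave 21 to 43 (average), 0 to 2 (serum), 4 to 22 (LY294002), 0 to 11 (E2F1 in deprivation), 0 to 2 and 0 to 8 (deprivation), and 0 to 1 and 0 to 6 (LY294002 in control virus and E2F1 cells). The lone deprived control virus array could not be left out of the comparisons that use it. The cause of these changes was not tested.

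With the replicate block the counts were 0 in serum, 12 with LY294002, 3 for E2F1 in deprivation and 1 for deprivation in control virus cells. Same-numbered arrays deviated together by a correlation of -0.02 to 0.30, above 0.1 in 1 of 10 group pairs. That pair was control virus and E2F1 with LY294002 (0.30), whose same-numbered arrays thus shared part of their deviation. The other group pairs showed little of this. Signals near the offset of 16, such as those of Myf6 and Kdr, carry little information on fold.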
